A study of Mus musculus with 16 samples.

Results

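The genes described are 10 nutrient transporters of the intestinal epithelium, taken by symbol from both deposited matrices: the sugar transporters *Slc5a1*, *Slc2a2* and *Slc2a5*, the peptide transporter *Slc15a1*, and the amino acid transporters *Slc7a9*, *Slc7a7*, *Slc7a15*, *Slc6a19*, *Slc1a1* and *Slc1a5*. All 10 were found among the 24421 genes listed. Single cells came from small intestine enriched for crypts, taken at postnatal day 16, shortly before weaning, and were profiled with a droplet kit in which transcripts receive a unique molecular identifier (UMI) at their 3′ ends. WT mice were compared with *ROBO* VilCre mice, called ROBO here, which carry 1 copy each of the *ROBO* Crainbow transgene and of *Villin-Cre*. In ROBO, *Villin-Cre* recombines the transgene in the developing intestinal epithelium, and each recombined cell then expresses either human RSPO3 or 1 of 2 fusions of PTPRK with RSPO3, while cells without recombination express only an inert label. RSPO3 is a secreted amplifier of Wnt signalling. The epithelium of ROBO mice is therefore a mosaic, and the positions were not told apart in the cells. Both genotypes were on an outbred background.

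The labels list 8 samples per genotype, but the cell names carry the genotype alone, so all cells of a genotype formed 1 pooled sample. Neither genotypes nor cell types could be tested against each other. Every interval given is a 95% interval that covers counting error, and variation among mice and libraries is not in it. There were 1348 WT cells with 2682127 UMIs and 1249 ROBO cells with 2428435 UMIs. The 10 transporters made up 6099 UMIs, which is 0.119% of all. At least 1 UMI of at least 1 of them was found in 1787 of 2597 cells, and a single cell held UMIs of at most 8. A level is given as UMIs of the gene per 10000 UMIs summed over a group of cells. A 3′ tagged UMI stands for 1 captured transcript whatever its length, so levels of different genes are compared without a length correction.

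The small intestine absorbs sugars, peptides and amino acids across the brush border of enterocytes and passes them to the blood across the basolateral membrane. Enterocytes are born in the crypt, where stem cells and transiently amplifying (TA) cells divide, and mature as they climb the villus. In rodents the diet turns from milk, with lactose as its sugar, to solid food with sucrose and starch at weaning, and the enterocyte gene program changes with it. Most transporters of the apical membrane take up their substrate with sodium or protons, and several amino acid transporters reach the membrane only with a partner protein.

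Clusters were built without the 10 transporters and without the wider transporter lists given further on. Of the 13 clusters, 2 were stem cell-like (564 cells together) and 1 was TA-like. The first stem cell-like cluster (348 cells) was led by *Zfp692*, *Ppan* and *Rnf43*, with 5 of 12 stem cell markers raised. The second (216 cells) had *Clu*, *Igfbp4* and *Lgr5* among its leading genes, with 8 of 12 raised. *Lgr5* did not lead the first, larger one. The TA-like cluster was led by *Rn45s*, *Mcm5* and *Cdca8*, with 5 of 15 TA markers raised. Another 2 clusters of crypt cells stayed unnamed, because markers of more than 1 class led them: 1 with *Ascl2*, *Reg3g* and *Reg3b*, called the *Ascl2* cluster, and 1 of dividing cells with *Ccna2*, *Birc5* and *Sfrp5*. The dividing cluster had 15 of 15 TA markers raised, more than the TA-like cluster. Levels of the TA-like cluster therefore do not stand for all TA cells. Enterocyte-like cells (996) fell into 5 clusters. A bottom enterocyte-like cluster was led by *Reg1*, *Ms4a18* and *Gsdmc4*, and a top enterocyte-like cluster by *Gpx3*, *Ada*, *Enpp3* and *Nt5e*. The 3 middle enterocyte-like clusters were a suckling-type cluster led by *Cubn* and *Lct*, the gene of lactase, a weaning-type cluster led by *Sis*, the gene of sucrase-isomaltase, and a cluster led by the stress genes *Cxcl10*, *Atf3* and *Fosb*. The remaining clusters were goblet and Paneth cells together, enteroendocrine-like cells and immune-like cells. Median UMIs per cell ranged from 824 in 1 stem cell-like cluster to 3110 in the *Ascl2* cluster. The second stem cell-like cluster held 8 cells with over 100 fibroblast marker UMIs per 10000.

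The sugar transporter genes lie in GRCm38 (GENCODE M21) with *Slc5a1* at chr5:33104219-33162870, *Slc2a2* at chr3:28697903-28731359 and *Slc2a5* at chr4:150119283-150144169, all on the plus strand. The peptide transporter gene lies with *Slc15a1* at chr14:121459621-121505252 on the minus strand. The amino acid transporter genes lie with *Slc7a7* at chr14:54369442-54417780, *Slc7a15* at chr12:8528483-8599066 and *Slc6a19* at chr13:73679745-73704865 on the minus strand and *Slc7a9* at chr7:35448796-35466036, *Slc1a1* at chr19:28835049-28913960 and *Slc1a5* at chr7:16781340-16798274 on the plus strand.

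Upstream sequences of 4 transporters are shown, because they stand for the sugar, peptide and amino acid groups and because *Slc7a15* had the largest ratio between genotypes over all cells. RefSeq entries (GRCm38.p6) were matched for 9 of the 10 genes. Each sequence holds the 250 bases before the annotated start, 5′ to 3′ on the strand of the gene. Capitals mark matches, on either strand, to short motifs named after the factors that bind such letters: TTTATG for CDX, CAAAGT for the core of HNF4 sites, GTTAAT for the core of HNF1 sites, AGATAA for GATA factors and TATAAA for the TATA box.
Slc5a1 (chr5:33103969-33104218, plus strand): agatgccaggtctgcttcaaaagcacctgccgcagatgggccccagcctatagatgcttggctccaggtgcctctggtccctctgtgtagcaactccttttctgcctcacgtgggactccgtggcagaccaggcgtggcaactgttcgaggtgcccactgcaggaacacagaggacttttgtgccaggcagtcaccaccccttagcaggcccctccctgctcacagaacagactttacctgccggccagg
Slc2a2 (chr3:28697653-28697902, plus strand): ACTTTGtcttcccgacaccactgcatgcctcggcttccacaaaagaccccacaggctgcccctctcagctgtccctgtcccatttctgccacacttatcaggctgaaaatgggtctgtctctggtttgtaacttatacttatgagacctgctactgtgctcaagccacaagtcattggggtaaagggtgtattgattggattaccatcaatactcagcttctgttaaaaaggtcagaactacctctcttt
Slc15a1 (chr14:121505255-121505504, minus strand): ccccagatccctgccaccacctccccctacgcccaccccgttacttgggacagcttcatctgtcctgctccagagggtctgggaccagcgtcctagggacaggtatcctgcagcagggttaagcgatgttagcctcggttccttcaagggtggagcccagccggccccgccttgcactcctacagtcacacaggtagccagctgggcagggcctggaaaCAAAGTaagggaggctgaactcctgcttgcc
Slc7a15 (chr12:8599067-8599316, minus strand): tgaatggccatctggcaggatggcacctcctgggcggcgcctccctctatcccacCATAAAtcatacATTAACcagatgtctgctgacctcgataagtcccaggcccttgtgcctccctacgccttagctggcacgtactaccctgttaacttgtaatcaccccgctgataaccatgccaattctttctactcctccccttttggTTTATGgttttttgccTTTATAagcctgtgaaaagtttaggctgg
The *Slc5a1* window held none of the 5 motifs. The *Slc2a2* window held 1 HNF4 core on the opposite strand, 250 to 245 bases before the start, and the *Slc15a1* window held 1 from 31 to 26 bases before the start. The *Slc7a15* window held CDX letters at 45 to 40 bases before the start. On the opposite strand it held CDX letters at 195 to 190, an HNF1 core at 183 to 178 and a TATA box at 29 to 24. Of the 9 genes, CDX letters occurred in 1, the HNF4 core in 3, the HNF1 core in 2, GATA letters in 2 and the TATA box in 1, counting any of their 15 annotated starts. Counted by window, 1, 3, 2, 3 and 1 of the 15 held these motifs, in the same order. Among all 32851 windows of this length, 10.8% held the CDX letters, 12.6% the HNF4 core, 6.43% the HNF1 core, 9.99% the GATA letters and 12.4% the TATA box. These matches are letters in a window and say nothing on binding.

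The first comparison asked where along the crypt-villus axis each transporter was expressed. Of the 10 transporters, 9 were more than 2-fold higher in enterocyte-like than in stem cell-like cells, and *Slc1a5* alone was more than 2-fold lower. Among the 9371 genes with at least 20 UMIs in these cells, 12.4% were more than 2-fold higher and 20.4% more than 2-fold lower. The median log2 ratio was 2.80 over the transporters and -0.26 over all genes. The clusters and the levels come from the same cells, so these ratios describe the cells and test nothing. Fewer cells that express a gene and fewer transcripts per cell were not told apart in these sums.

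**Figure D1:**
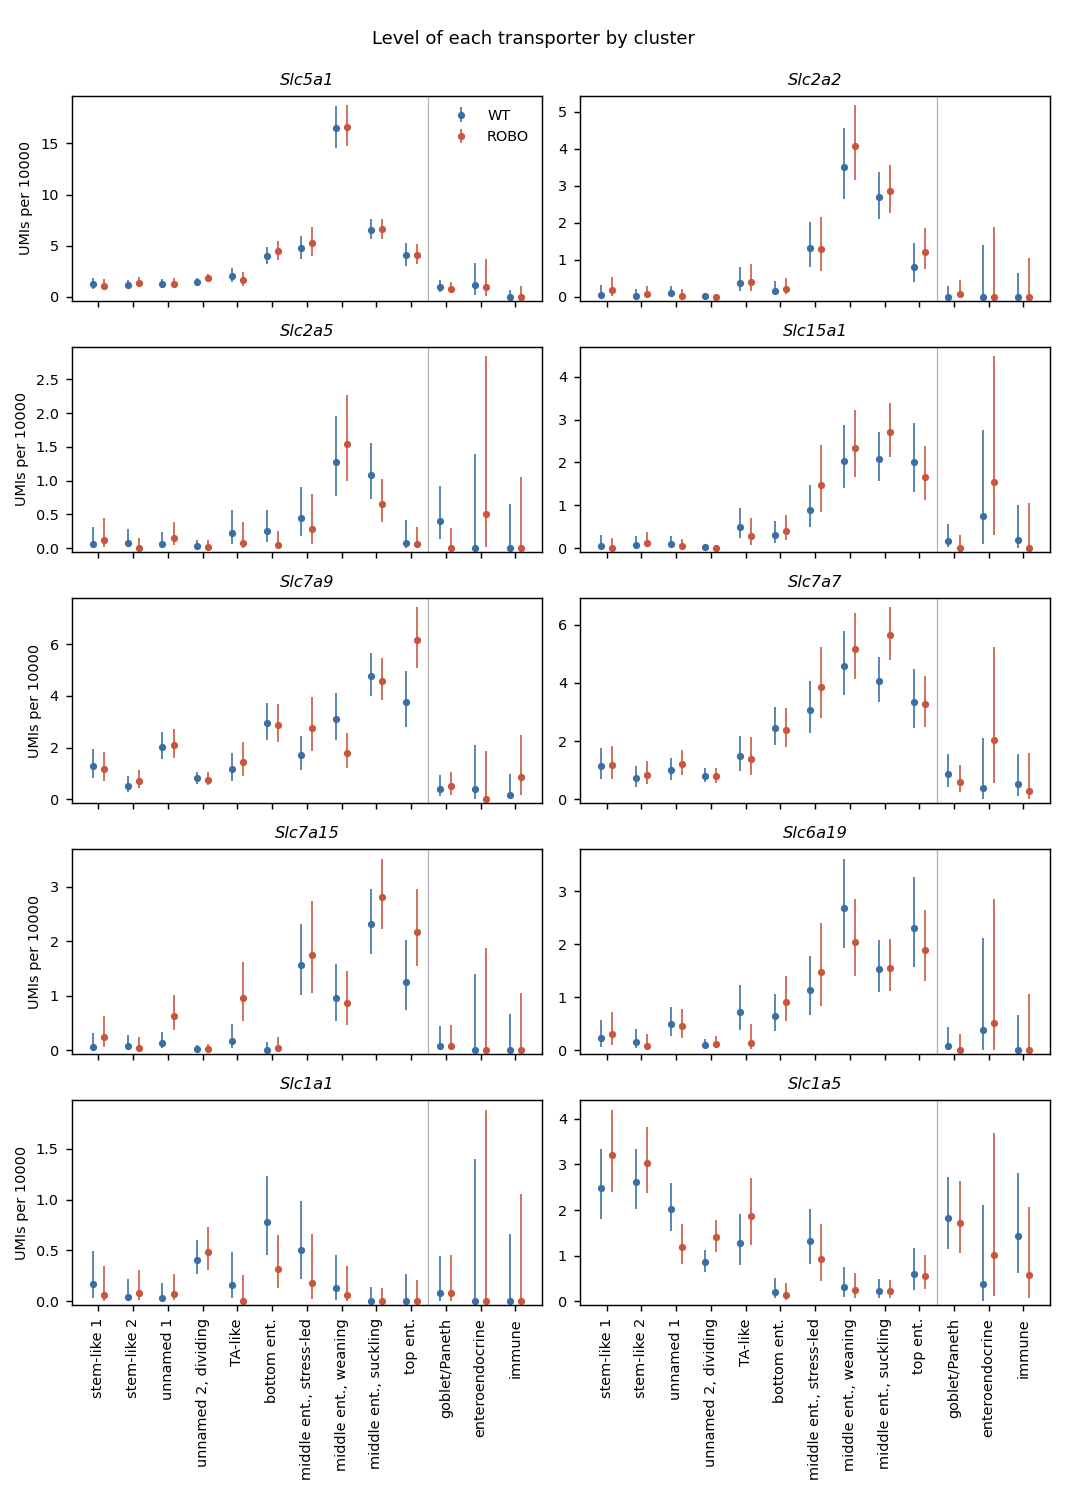
Level of each of the 10 transporters (UMIs per 10000, linear axis from 0) in each cluster, for WT (blue) and ROBO (red), with exact Poisson 95% intervals for counting error; crypt clusters are on the left, enterocyte-like (ent.) clusters follow, and clusters of other lineages stand right of the grey line. *Slc5a1* peaks at 16.5 in WT and 16.6 in ROBO in the weaning-type cluster, *Slc7a15* in the suckling-type cluster, *Slc1a1* in bottom enterocyte-like and dividing cells, and *Slc1a5* in the stem cell-like clusters.

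*Slc5a1* encodes SGLT1, which takes up glucose and galactose with sodium at the brush border. It was the most abundant of the 10, with 894 UMIs in WT and 894 in ROBO. Its level was 1.19 in WT and 1.28 in ROBO stem cell-like cells, and 6.92 and 7.19 in enterocyte-like cells, a log2 ratio over both genotypes of 2.52 (2.23 to 2.82). Its levels differed in steps between clusters. In the unnamed dividing cluster it stood at 1.51 in WT and 1.81 in ROBO. It stood at 2.10 in WT and 1.66 in ROBO TA-like cells, at 4.01 and 4.46 in bottom enterocyte-like cells, and at 6.56 and 6.61 in the suckling-type cluster. The TA-like cluster was not below the bottom one in content of enterocyte genes, at 136 UMIs per 10000 in WT and 118 in ROBO against 120 and 117. The weaning-type cluster held the highest level by far, at 16.5 (14.5 to 18.6) in WT and 16.6 (14.7 to 18.7) in ROBO. At the top the level was back at 4.07 and 4.11, and no interval there reached those of the weaning-type cluster. In the 47 immune-like cells no *Slc5a1* UMI was found, which allows a level of up to 0.330. The level of stem cell-like cells, 1.23 (1.00 to 1.495) over both genotypes, lay above that limit.

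*Slc2a2* encodes GLUT2, the facilitative carrier that lets glucose, galactose and fructose leave the enterocyte on the basolateral side. It was close to absent until the middle of the villus program. Stem cell-like cells held 2 UMIs in WT and 5 in ROBO, and bottom enterocyte-like cells 4 and 5, at levels of 0.173 and 0.225. The suckling-type cluster held 2.68 (2.10 to 3.38) in WT and 2.85 (2.26 to 3.56) in ROBO, and the weaning-type cluster 3.50 (2.64 to 4.56) and 4.06 (3.14 to 5.17). In top enterocyte-like cells the level was lower again, at 0.814 (0.407 to 1.46) in WT and 1.22 (0.766 to 1.85) in ROBO. In bottom enterocyte-like cells *Slc5a1* was thus near its level in top cells, while *Slc2a2* was near its level in the crypt.

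*Slc2a5* encodes GLUT5, the apical fructose carrier, which is low in rodents before weaning. It was the least abundant sugar transporter, with 79 UMIs in WT and 57 in ROBO. Enterocyte-like cells held 0.662 in WT and 0.505 in ROBO, and stem cell-like cells 3 and 2 UMIs. The weaning-type cluster held 1.27 (0.777 to 1.97) in WT and 1.54 (0.996 to 2.27) in ROBO, and the suckling-type cluster 1.08 (0.724 to 1.55) and 0.650 (0.385 to 1.03). Within each genotype these intervals overlapped. Top enterocyte-like cells held 1 UMI per genotype.

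*Slc15a1* encodes PEPT1, which takes up dipeptides and tripeptides with protons at the brush border. Like *Slc2a2* it was scarce in stem cell-like cells, with 3 UMIs in each genotype, and in bottom enterocyte-like cells, at 0.302 (0.121 to 0.622) in WT and 0.405 (0.185 to 0.769) in ROBO. Suckling-type cells held 2.09 (1.58 to 2.71) and 2.71 (2.13 to 3.40), and the weaning-type cluster 2.04 (1.39 to 2.87) and 2.34 (1.66 to 3.21). Unlike *Slc2a2*, it was held in top enterocyte-like cells, at 2.00 (1.32 to 2.91) in WT and 1.67 (1.13 to 2.38) in ROBO. Intervals of these 3 clusters overlapped within each genotype. Outside enterocytes, the 30 enteroendocrine-like cells held 2 UMIs in WT and 3 in ROBO.

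*Slc7a9* encodes b0,+AT, the apical carrier of cystine and basic amino acids that is defective in cystinuria. *Slc7a7* encodes y+LAT1, which exports basic amino acids across the basolateral membrane and is defective in lysinuric protein intolerance. Stem cell-like cells held 0.839 UMIs per 10000 of *Slc7a9* in WT and 0.902 in ROBO, and 0.886 and 0.977 of *Slc7a7*. Immune-like cells, which should lack *Slc7a9*, held 4 UMIs of each gene over both genotypes, a level of 0.439 (0.120 to 1.13). That interval rests on 4 UMIs and covers the stem cell-like level of *Slc7a9*, so it cannot tell that level from background. Immune-like cells are not taken to lack *Slc7a7*, so for it they give no background. Neither stem cell-like level is read as expression or as its absence. The log2 ratios of enterocyte-like over stem cell-like cells for *Slc7a9* and *Slc7a7* were 2.05 (1.70 to 2.42) and 2.04 (1.70 to 2.40), the smallest among the higher transporters except *Slc1a1*. Higher up, the pair of them parted.

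*Slc7a7* was highest in the suckling-type and weaning-type clusters, at 4.06 (3.34 to 4.90) and 4.58 (3.58 to 5.77) in WT and 5.64 (4.79 to 6.59) and 5.17 (4.13 to 6.40) in ROBO. In top enterocyte-like cells it stood at 3.33 in WT and 3.28 in ROBO. *Slc7a9* was high in the suckling-type cluster, at 4.77 (3.98 to 5.67) in WT and 4.59 (3.82 to 5.46) in ROBO. It was lower in the weaning-type cluster, at 3.12 (2.31 to 4.12) and 1.79 (1.196 to 2.56). In the top cluster *Slc7a9* stood at 3.78 (2.81 to 4.97) in WT and 6.17 (5.08 to 7.43) in ROBO, which was its highest value in ROBO, while in WT the suckling-type cluster was highest. In the *Ascl2* cluster *Slc7a9* stood at 2.02 (1.54 to 2.59) in WT and, in ROBO, at 2.10 (1.59 to 2.73). Among the other crypt clusters, the first stem cell-like one held 1.30 (0.823 to 1.95) and 1.17 (0.705 to 1.83), the second 0.516 and 0.718, the dividing one 0.805 and 0.753, and the TA-like one 1.16 (0.717 to 1.77) and 1.45 (0.897 to 2.22), so the *Ascl2* cluster overlapped with the first and the TA-like one.

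*Slc7a15* encodes arpAT, a carrier of aromatic and other amino acids that is not functional in humans. Its UMIs were concentrated in the suckling-type cluster, which held 47.3% of those of WT and 41.3% of those of ROBO. The level there stood at 2.31 (1.77 to 2.96) in WT and 2.82 (2.23 to 3.52) in ROBO. Bottom enterocyte-like cells held 0 UMIs in WT and 1 in ROBO, and the weaning-type cluster 0.954 (0.534 to 1.57) and 0.862 (0.471 to 1.45). In top enterocyte-like cells, where the suckling list sums to 202 in WT and 215 in ROBO, the level stood at 1.26 (0.733 to 2.02) in WT and 2.17 (1.54 to 2.96) in ROBO.

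*Slc6a19* encodes B0AT1, the main sodium-coupled carrier of neutral amino acids at the brush border, which is defective in Hartnup disorder. Its level was 0.187 in WT and 0.175 in ROBO stem cell-like cells and 1.54 in enterocyte-like cells of each genotype. In WT the bottom enterocyte-like cluster held 0.647 (0.362 to 1.07), and in ROBO it held 0.900 (0.550 to 1.39). The suckling-type cluster held 1.53 (1.10 to 2.07) in WT and 1.55 (1.12 to 2.09) in ROBO. For the weaning-type cluster the values were 2.67 (1.93 to 3.61) and 2.03 (1.40 to 2.85), and for the top cluster 2.30 (1.56 to 3.26) and 1.89 (1.31 to 2.64).

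The 2 transporters of the SLC1 family ran against this order. *Slc1a1* encodes EAAT3, an apical carrier of glutamate and aspartate. With 62 UMIs in WT and 40 in ROBO it was the rarest of the 10. Of its UMIs, 25 in WT and 24 in ROBO lay in the unnamed cluster of dividing cells, at levels of 0.410 (0.266 to 0.606) and 0.488 (0.313 to 0.727). Another 18 in WT and 7 in ROBO lay in bottom enterocyte-like cells, at 0.776 (0.460 to 1.23) and 0.315 (0.127 to 0.649). The suckling-type and top clusters together had no *Slc1a1* UMI in either genotype, although they held 283 and 223 cells, which allows levels of up to 0.0550 and 0.0953. The log2 ratio of enterocyte-like over stem cell-like cells, 1.24 (0.06 to 2.65), therefore came from 25 UMIs in bottom, 10 in stress-led and 3 in weaning-type cells, and it was 0.49 in ROBO alone, short of 2-fold.

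*Slc1a5* encodes ASCT2, an exchanger of glutamine and other neutral amino acids that is common in dividing cells. It was highest in the 2 stem cell-like clusters, at 2.48 (1.81 to 3.34) and 2.62 (2.03 to 3.33) in WT and at 3.20 (2.39 to 4.20) and 3.04 (2.38 to 3.83) in ROBO. Its log2 ratio of enterocyte-like over stem cell-like cells was -2.78 (-3.17 to -2.41). The unnamed dividing cluster held less, 0.854 in WT and 1.40 in ROBO. The bottom, suckling-type and weaning-type clusters held between 0.135 and 0.318 in each genotype. Goblet and Paneth cells kept 1.82 in WT and 1.72 in ROBO, and immune-like cells held 8 and 2 UMIs. The top enterocyte-like cluster held 0.592 in WT and 0.556 in ROBO, on 8 and 10 UMIs. Among enterocyte-like cells the stress-led cluster was highest, at 1.32 in WT and 0.921 in ROBO, on 21 and 10 UMIs. Without that cluster the log2 ratio over both genotypes was -3.30.

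The rise of most transporters from crypt to enterocyte-like cells was also seen when cells were binned. The bins could not show whether *Slc5a1* and *Slc2a2* are lower at the top. The highest bin held 479 cells, at 817 to 4805 UMIs of enterocyte genes per 10000. The top cluster held 223 cells, so that bin also took in other cells. Cells outside the secretory, enteroendocrine and immune-like clusters were put in 5 bins of equal size by their content of 18 enterocyte genes, such as *Alpi*, *Fabp1*, *Apoa4* and *Anpep*, none of which is a transporter described here. A bin is a range of content and not a cell type. Some of the 18, such as *Alpi* and *Fabp1*, are also cluster markers, so the bins are not separate from the clusters. In the lowest bin 45.4% of cells were stem cell-like, and in the highest 97.7% were enterocyte-like. Over both genotypes *Slc5a1* stood at 1.21, 1.27, 1.94, 7.01 and 8.29 UMIs per 10000 from the lowest to the highest bin, and *Slc2a2* at 0.0303, 0.0375, 0.0542, 1.78 and 2.42. From bin 4 to bin 5 *Slc5a1* went from 6.39 to 9.37 in WT and from 7.72 to 7.42 in ROBO. *Slc7a9* stood at 0.435, 0.835, 1.90, 3.58 and 4.44. Its first step was within counting error in WT, from 0.452 (0.292 to 0.667) to 0.574 (0.387 to 0.820), and larger in ROBO, from 0.413 (0.245 to 0.653) to 1.09 (0.827 to 1.401). *Slc15a1* had 2 UMIs in the middle bin and 139 in the next. *Slc1a1* was highest in the second bin, at 0.338 (0.237 to 0.468), and had 1 UMI in the highest. *Slc1a5* ran the other way, at 2.03 (1.76 to 2.33) in the lowest bin and 0.329 (0.215 to 0.482) in the highest.

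**Figure D2:**
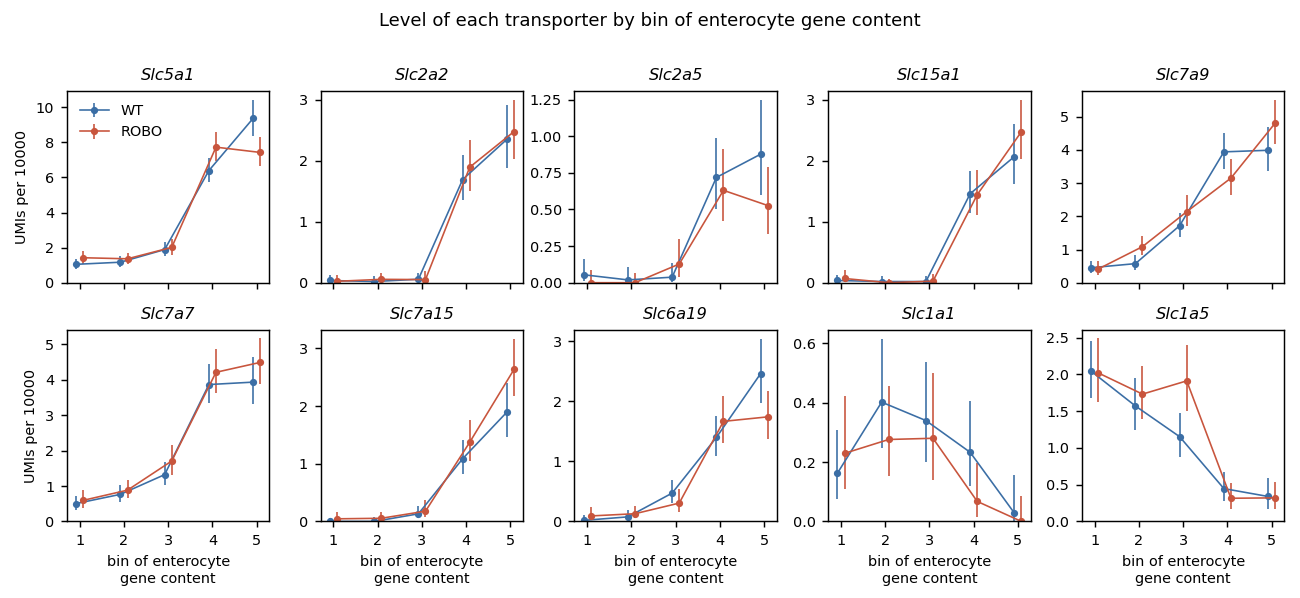
Level of each transporter (UMIs per 10000, linear axis from 0) in 5 bins of cells ordered by their content of enterocyte genes, from the lowest (1) to the highest (5), for WT (blue) and ROBO (red), with exact Poisson 95% intervals; each bin holds 478 or 479 cells of both genotypes. Most transporters are higher in bins 4 and 5 than in bins 1 to 3, *Slc7a9* is higher from bin 3 on than in bin 1, *Slc1a1* is lowest in bin 5, and *Slc1a5* is lower in bins 4 and 5 than in bins 1 to 3.

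Shares of cells gave the same picture at equal depth. Each cell was thinned to 912 UMIs, which left out 364 WT and 285 ROBO cells that were shallower. *Slc5a1* was then found in 37.5% (34.0 to 41.0) of 777 enterocyte-like cells and in 8.02% (5.40 to 11.4) of 349 stem cell-like cells, against 53.5% and 14.9% without thinning. *Slc7a7* and *Slc7a9* were each found in 27.3% of the enterocyte-like cells, *Slc15a1* in 14.2%, *Slc2a2* in 12.7%, *Slc6a19* in 11.7% and *Slc7a15* in 10.9%. *Slc2a5* was found in 4.63% and *Slc1a1* in 2.06%. *Slc1a5* was found in 21.2% (17.0 to 25.9) of stem cell-like and 2.70% (1.68 to 4.10) of enterocyte-like cells. The 36 immune-like cells of that depth, a class that should lack apical transporters, held UMIs of *Slc7a9* in 3, of *Slc7a7* in 1 and of *Slc1a5* in 5, and none of the other 7. A count of 0 of 36 allows a share of up to 8.33%. Median depth before thinning was 1162 UMIs in stem cell-like, 1536 in enterocyte-like and 1749 in immune-like cells. The shares of *Slc7a9* and *Slc7a7* in stem cell-like cells, 6.30% and 7.74%, and that of *Slc5a1* lie at or below this limit and are not read as expression from shares. *Slc7a7* is not an apical transporter, so for it the immune-like cells set no background.

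The next comparison set the weaning-type against the suckling-type cluster, which lie at a similar content of enterocyte genes, 779 UMIs per 10000 in WT and 730 in ROBO against 809 and 938. The suckling list (*Lct*, *Cubn*, *Lrp2* and others) summed to 106 in WT and 111 in ROBO in the suckling-type cluster and to 40.1 and 33.0 in the weaning-type cluster. The weaning list (*Sis*, *Treh*, *Mgam*, *Arg2*, *Gsta1*) summed to 3.76 and 4.01 against 44.3 and 52.0. Genes of the ileum such as *Fabp6* and *Slc10a2* summed to 8.61 and 7.98 against 8.59 and 7.82.

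Of the 9 transporters with at least 20 UMIs in these cells, *Slc5a1* was more than 2-fold higher in the weaning-type cluster and *Slc7a15* more than 2-fold lower. Among all 6056 such genes 7.69% were higher and 10.9% lower by that measure, so the shares of the 9 were close to the background. *Slc5a1* had a log2 ratio of 1.33 (1.13 to 1.53), with 1.33 in WT and 1.33 in ROBO. *Slc7a15* had a log2 ratio of -1.501 (-2.13 to -0.92), with -1.28 in WT and -1.71 in ROBO. The log2 ratios of 3 others were above 0 and short of 2-fold, at 0.45 (0.09 to 0.81) for *Slc2a2*, 0.71 (0.09 to 1.33) for *Slc2a5* and 0.61 (0.14 to 1.07) for *Slc6a19*. *Slc7a9* leaned as *Slc7a15* did, at -0.94 (-1.32 to -0.57), while *Slc7a7* and *Slc15a1* stood at 0.01 (-0.29 to 0.30) and -0.13 (-0.57 to 0.30). When all enterocyte-like cells were instead split by whether suckling or weaning list UMIs were more numerous, *Slc5a1* was short of 2-fold, at 0.56 (0.39 to 0.72), and *Slc7a15* stood at -2.38 (-3.08 to -1.75). Under that split the ratio of *Slc2a2* was -0.29 (-0.64 to 0.06) and that of *Slc2a5* 0.10 (-0.52 to 0.70), so the direction of *Slc2a2* turned and neither interval excluded 0. *Slc6a19* turned to -0.46 (-0.87 to -0.06) and *Slc7a7* to -0.44 (-0.69 to -0.19), and *Slc15a1* stood at -0.93 (-1.37 to -0.52). *Slc1a1* was then higher in the cells with more weaning list UMIs, with 18 UMIs in 229 cells against 5 in 689. The weaning-type cluster itself held 3 *Slc1a1* UMIs. In bottom enterocyte-like cells too the weaning list summed above the suckling list, at 17.8 against 9.27 in WT and 15.1 against 9.41 in ROBO.

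The last comparison asked whether the transporters differed between ROBO and WT. Over all cells none of the 10 was more than 2-fold apart, against 1.35% of 10634 genes that were more than 2-fold higher in ROBO and 1.42% that were lower. The counting intervals of 6 of them left out equality, each with the higher level in ROBO: *Slc5a1*, *Slc2a2*, *Slc15a1*, *Slc7a7*, *Slc7a9* and *Slc7a15*. Among all genes, 7.01% were higher by that measure and 7.50% lower. *Slc7a15* had the largest of these ratios, with 131 UMIs in WT and 189 in ROBO, or 0.488 and 0.778 per 10000, for a log2 ratio of 0.67 (0.34 to 1.00). The other 5 lay between 0.14 and 0.33, and *Slc5a1* was at -0.02 when each cell had the same weight. Enterocyte-like cells held 35.5% of the UMIs of WT and 39.1% of those of ROBO, and were 37.8% and 38.9% of the cells. The ratios were also pooled within clusters, without intervals, and the cause of the differences was not tested. The ratio of *Slc7a15* was then 0.55, and those of the other 5 were between 0.05 and 0.19.

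**Figure D3:**
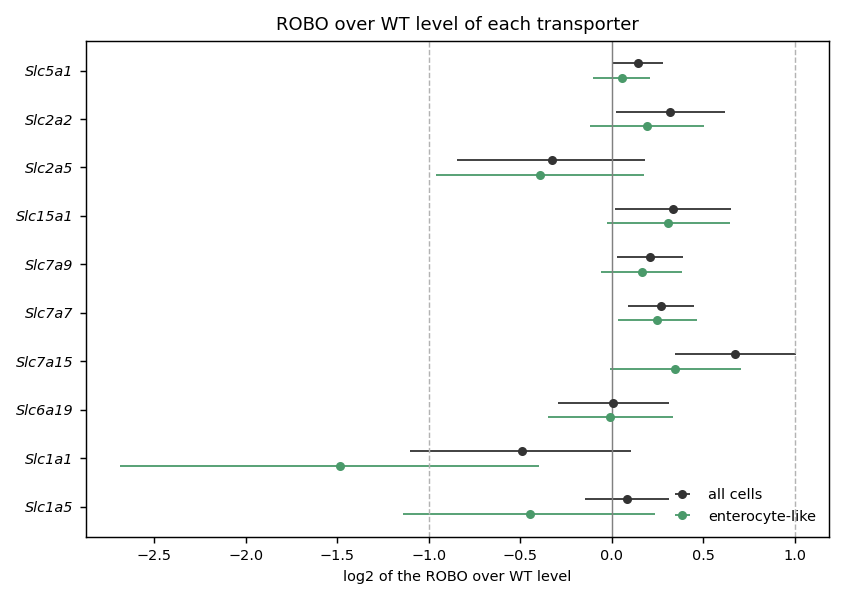
Log2 of the ROBO over WT level of each transporter over all cells (black) and over enterocyte-like cells (green), with conditional exact 95% intervals for counting error; the solid line marks equality and the dashed lines a 2-fold difference. All 10 points over all cells lie within the dashed lines, and *Slc1a1* in enterocyte-like cells, at -1.48, lies outside.

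In enterocyte-like cells alone, *Slc7a7* was the only transporter whose interval lay above equality, with 332 UMIs in WT and 394 in ROBO and a log2 ratio of 0.25 (0.04 to 0.46). *Slc1a1* was the only one below it and the only one past 2-fold, with 28 UMIs in WT and 10 in ROBO and a log2 ratio of -1.48 (-2.69 to -0.40). Among 8263 genes in these cells, 1.51% were more than 2-fold higher and 1.90% more than 2-fold lower, and intervals left out equality on the higher side for 4.82% and on the lower side for 6.49%. For *Slc6a19* the log2 ratio was -0.01 (-0.35 to 0.33), which leaves out a 2-fold difference in either direction as far as counting error goes. The intervals of *Slc5a1*, *Slc2a2*, *Slc2a5*, *Slc15a1*, *Slc7a9* and *Slc7a15* also lay within 2-fold, while that of *Slc1a5*, -0.44 (-1.14 to 0.24), did not.

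Within single clusters, 61 pairs of transporter and cluster had at least 20 UMIs, and the other 69 had fewer. The interval left out equality in 4 of the 61 with the higher level in ROBO and in 2 with the lower, while over all genes and clusters the shares were 5.09% and 4.71%. Both counts were thus close to the background, and the pairs below are named only because their intervals left out equality. In the top cluster *Slc7a9* was counted 51 times in WT and 111 times in ROBO, which gave a log2 ratio of 0.71 (0.22 to 1.22), while in the weaning-type cluster it had 49 and 29, a ratio of -0.80 (-1.52 to -0.11). These 2 *Slc7a9* ratios had opposite signs. *Slc7a7* was higher in ROBO in the suckling-type cluster, with 109 and 156 UMIs and a ratio of 0.47 (0.11 to 0.84). *Slc1a5* was higher in ROBO in the unnamed dividing cluster, with 52 and 69 UMIs, and lower in the *Ascl2* cluster, with 61 and 32. *Slc7a15* in the *Ascl2* cluster went from 4 UMIs in 4 WT cells to 17 in 7 ROBO cells. Below 20 UMIs, *Slc7a15* in TA-like cells had 3 UMIs in WT and 14 in ROBO, and *Slc6a19* there had 13 and 2.

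Wider lists of transporters were described in the same way. Of 17 further sugar transporters, 6 had at least 20 UMIs in the compared cells, and 2 of these were more than 2-fold higher in enterocyte-like cells and none lower, beside 12.4% higher and 20.4% lower among all genes. These 2, named after their values were seen, were *Slc5a11*, a sodium-coupled carrier of inositol, at 0.905 against 0.0242, and *Slc5a9*, a sodium-coupled carrier of mannose, at 0.452 against 0.121. Of 38 further amino acid transporters and subunits, 18 could be read, with 6 higher and 3 lower, against the same 12.4% and 20.4%. Of 4 further peptide transporters, 2 could be read, with *Slc15a2* lower. The median log2 ratios were 0.63 for the sugar, 0.46 for the amino acid and -0.73 for the peptide transporters, beside -0.26 over all genes.

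Several partner proteins of the carriers were read as well. *Tmem27*, the partner of B0AT1 in the kidney, had 6 UMIs in all. *Slc3a1* encodes rBAT, the heavy chain of b0,+AT, and stood at 2.50 UMIs per 10000 in enterocyte-like against 0.556 in stem cell-like cells, a log2 ratio of 2.17 (1.73 to 2.64) that lay close to that of *Slc7a9*. *Slc3a2* encodes 4F2hc, the heavy chain of y+LAT1 and of several carriers of the crypt, and stood at 3.52 against 1.29, a ratio of 1.45 (1.15 to 1.75). *Slc9a3r1*, a scaffold of the brush border, stood at 6.29 against 0.966. Of the 9 partners in the matrices, 7 could be read, with 5 higher and none lower, beside the 12.4% and 20.4% of all genes. Both *Slc3a1* and *Slc3a2* are counted among the partners and also among the amino acid transporters and subunits.

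The other transporters named by abundance were *Slc43a2*, a carrier of large neutral amino acids, at 3.40 against 0.290, and *Slc7a8*, which encodes the basolateral exchanger LAT2, at 2.51 against 0.640. On the side of the stem cell-like cells stood *Slc7a1*, the carrier of cationic amino acids CAT1, at 0.906 against 0.352. *Slc7a6* and *Slc7a5*, light chains that pair with 4F2hc, stood at 0.314 against 0.0421 and at 0.193 against 0.0263. *Slc15a2*, which encodes PEPT2, stood at 0.423 against 0.158, opposite in direction to *Slc15a1*. Between genotypes, 6 sugar, 22 amino acid and 2 peptide transporters and 7 partners could be read over all cells, and 1 amino acid transporter was more than 2-fold apart. Among all genes read in that comparison 1.35% were higher in ROBO and 1.42% lower. The transporter was *Slc38a6*, named after its values were seen, with 19 UMIs in WT and 46 in ROBO.

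**Figure D4:**
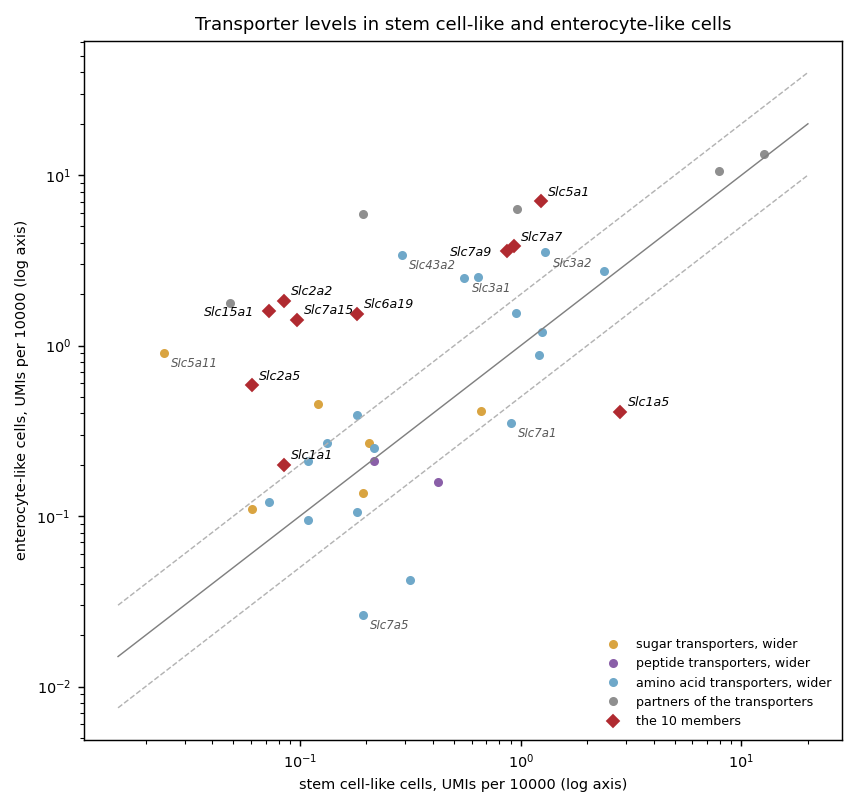
Level of each transporter in stem cell-like cells (x axis) and in enterocyte-like cells (y axis), in UMIs per 10000 over both genotypes, with both axes logarithmic; red diamonds are the 10 transporters and circles the genes of the wider lists with at least 20 UMIs. The solid line marks equal levels and the dashed lines a 2-fold difference, and *Slc1a5* is the only red diamond below them.

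The genes most like each transporter were ranked by Pearson's r over 24 points, each a cluster of 1 genotype with at least 20 cells, on the log2 scale with 0.1 added to the level, among 5107 genes. The points share clusters and depth, so r is a description. *Slc5a1* was most like *Vil1*, the gene of the brush border protein villin (r = 0.97), and *Slc2a2* most like *Acsl5* (0.96), *Gpt* (0.94) and *Pck1* (0.94), which serve fatty acid activation, alanine metabolism and gluconeogenesis. *Slc2a5*, the fructose carrier, was most like *Khk* (0.87), which encodes ketohexokinase, the first enzyme of fructose breakdown. *Slc7a7* was most like *Mogat2* (0.97), an enzyme of fat resynthesis, and *Slc6a19* most like *Slc7a7* (0.95). *Slc15a1* was most like *Ephx2* (0.96) and *Slc9a3r1* (0.95), *Slc7a15* most like *Cubn* (0.95), the gene of the endocytic receptor cubilin, and *Slc7a9* most like *St3gal1* (0.92). *Slc1a1* was most like *Gsdmc4* (0.87) and *Dmbt1* (0.85), genes of the bottom of the villus, and *Slc1a5* most like *Utrn* (0.92), with *Slc12a2* (0.86), a stem cell marker, at the third place.

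Among the 8 transporters other than *Slc1a1* and *Slc1a5*, r over these points ranged from 0.47 to 0.95 in 28 pairs, with a median of 0.79. *Slc1a1* stood between -0.35 and 0.24 with the others, and *Slc1a5* between -0.65 and -0.08. Pairing of carriers within single cells was read after each cell was thinned to 912 UMIs, leaving out shallower cells. In the suckling-type cluster *Slc2a2* was found in 18.5% (11.1 to 27.9) of cells with an *Slc5a1* UMI and in 18.7% (12.5 to 26.3) of cells without. In the weaning-type cluster the shares were 32.9% (22.7 to 44.4) and 17.9% (7.54 to 33.5), which overlap. *Slc7a7* was found in 38.2% (27.2 to 50.02) of suckling-type cells with *Slc7a9* and in 28.0% (21.0 to 35.9) of those without. No pairing beyond counting error was detectable at this depth.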

How the data were processed

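Counts are UMIs per gene and cell. Per the study's methods, crypts were dissociated with trypsin and Collagenase/Dispase, cells were captured on a ddSEQ isolator, libraries were made with the SureCell WTA 3′ kit, and the authors preprocessed reads in BaseSpace. The authors deposited raw counts, without normalization, as 1 matrix per genotype. The submitters' processing notes name the builds mm10 and GRCm38. The aligner, the annotation and the rule for calling cells are not given in the sources used here. Depth ranged from 463 to 13756 UMIs per cell.

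The members and lists were chosen with earlier results of these data known. Following the methods, both matrices were combined, log-normalized, adjusted for S and G2M scores and clustered, here in Seurat 5.3.0 (R 4.3.3) at a resolution of 0.8 on 20 principal components of the 2000 most variable genes. Genes in at least 3 cells were used, without the 10 transporters and the wider lists. No filter on cells was applied. A cluster was named from fixed markers when at least 3 were raised 1.5-fold and detected in 10% of its cells; this rule was set after the clusters were seen, and a name was dropped when markers of another class outnumbered its own among the 10 leading genes. Scrublet in scanpy 1.11.5 marked 5 doublets, which were kept.

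UMIs were summed over cells and set per 10000. Levels have exact Poisson, ratios conditional exact and shares Clopper-Pearson 95% intervals (scipy 1.17.1). A gene counted as apart when past 2-fold with at least 20 UMIs. The ratio intervals were tested on simulated sums with counting error alone. Variation among cells, libraries and mice was not in that simulation. A count of 0 was given the limit of 3 counts. Named genes were all members, the 5 genes of the wider lists with the most UMIs among those past 2-fold in each direction, the partners *Slc3a1*, *Slc3a2* and *Tmem27*, and for each member the 3 most like genes, of which the text gives some. Alternatives covered clustering, depth, doublets, scaling, the weight of cells and the minimum of UMIs. The partner list held *Tmem27* also under its other symbol *Cltrn*, and it was read once. The values of some listed genes are not reported here.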

Additional observations from a re-analysis of the deposited data

How the results depend on the processing

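The 9 transporters higher and the 1 lower in enterocyte-like than in stem cell-like cells kept their direction in all 13 alternatives of this ratio (8 other clusterings or cell filters, equal weight of cells, scaling without the 100 most abundant genes, each genotype alone, and the stress-led cluster left out, which was added after seeing the data). Past 2-fold they stayed as well, except *Slc1a1* in ROBO alone, at 0.49. The log2 ratio of *Slc5a1* ranged from 2.00 to 2.59 and that of *Slc1a5* from -3.30 to -2.11. The count was 8 in ROBO alone and with a minimum of 50 UMIs.

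Between genotypes the count of transporters past 2-fold was 1 in enterocyte-like cells alone, which is *Slc1a1*, and 0 in every other alternative. *Slc7a15* ranged from 0.35 to 0.78 and stayed above 0. *Slc5a1*, *Slc6a19* and *Slc1a5* changed sign in at least 1 alternative. The ratio pooled within clusters was added after seeing the data. Between the weaning-type and suckling-type clusters 4 transporters were past 2-fold in ROBO alone (*Slc5a1*, *Slc2a5*, *Slc7a9* and *Slc7a15*), 2 in WT alone and 3 when enterocyte-like cells were split by list UMIs. In that split *Slc2a2*, *Slc7a7*, *Slc6a19* and *Slc1a5* turned from positive to -0.29, -0.44, -0.46 and -1.11. The split takes in bottom and top cells, and the cause was not tested. Shares of cells and levels of the highest bin left the interval of the reported value in 17 and 9 of 20 alternatives each. No paired analysis was possible because the columns carry no replicate number. Depth limits *Slc1a1*, *Slc2a5* and every value within a small cluster.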

Other observations

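Genes of the wider lists also differed between the suckling-type and weaning-type clusters; these were picked after their values were seen. *Slc38a2*, which encodes the sodium-coupled neutral amino acid carrier SNAT2, stood at 0.857 UMIs per 10000 in WT and 0.759 in ROBO in the suckling-type cluster and at 3.37 and 3.94 in the weaning-type cluster. *Pdzk1*, a scaffold of apical transporters, ran the other way, at 2.68 and 2.89 against 0.700 and 1.23. *Slc5a11* stood at 1.34 in each genotype against 2.04 and 2.16.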
